A study of Mus musculus with 101 samples.

Results

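The transcriptome of epididymal fat was set against that of subcutaneous fat in lean wild-type (WT) mice. The comparison used 8 epididymal and 8 subcutaneous libraries, 16 of the 101 libraries of the series, all from male C57BL/6NTac mice on chow with no vector and no deletion. They were chosen by the genotype, diet and tissue in their labels, where the 8 libraries of each depot are numbered and marked as biological replicates. The labels do not say that libraries of the same number came from 1 animal, nor which subcutaneous pad was taken. The series as a whole asked what Inhbe, the gene of the liver hormone activin E, does to fat, and these 16 libraries are its untreated baseline. Side values came from 3 other pairs of groups of male mice of this strain. These were WT mice on chow given an AAV8 vector that drives GFP in the liver (10 epididymal and 10 subcutaneous libraries), Inhbe knockout (KO) mice on chow (7 and 7), and WT mice on a high fat diet (HFD; 8 and 7).

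White fat depots differ in their developmental origin. Epididymal fat is visceral fat that hangs from the epididymis, the coiled duct in which sperm mature, and is covered by mesothelium, the epithelial sheet that lines body cavities. Subcutaneous fat of the groin lies beneath skin and muscle and encloses a lymph node, so that a dissected pad of either depot can hold RNA of a neighbouring organ. Adipocytes and their progenitors keep region-specific transcription factors and Hox genes from the embryo, and depots differ in their content of thermogenic (beige) adipocytes, nerves, immune cells and matrix.

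Of 13979 genes tested, 2977 were higher in epididymal than in subcutaneous fat (21.3% of genes tested) and 3435 were lower (24.6%). Counts of list members in the full comparison are to be read beside these 2 shares. The call rule was a Benjamini-Hochberg adjusted p under 0.05 in edgeR's quasi-likelihood test, which gave every adjusted p below unless another tool is named. The median log2 fold change, epididymal over subcutaneous, was -0.011. A fold of at least 2 was reached by 944 of the higher and 1095 of the lower genes. All 8 epididymal libraries lay above all 8 subcutaneous ones for 827 genes (5.92% of genes tested) and below them for 350 genes (2.5%). Levels are CPM, counts per 1e+06 counts of the library. The libraries held 14.15 to 16.44 (epididymal) and 13.63 to 17.29 (subcutaneous) times 1e+06 counts, so that 3 counts, taken as the limit that a count of 0 allows, stood for 0.1825 to 0.212 and 0.1735 to 0.22 CPM. Such limits and the counting intervals below cover counting error only. The fat-cell hormone gene Adipoq had 1650 to 3100 CPM in epididymal and 1460 to 2230 CPM in subcutaneous libraries, so both kinds of library held adipocyte RNA.

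Libraries stood apart within each depot by the transcripts of neighbouring organs that they held. The epididymis list sums 34 genes that the duct epithelium secretes or uses, such as Crisp1, Adam7 and Cuzd1. Epididymal libraries 1 to 8 held 132.9, 4.1, 1641, 1.4, 5469, 112.1, 109.3 and 2511 summed CPM of it, and the 8 subcutaneous libraries 0.446 to 3.727 CPM. Libraries 3, 5 and 8 were thus rich in epididymis transcript, libraries 1, 6 and 7 held less, and libraries 2 and 4 held amounts in or near the range of subcutaneous fat. Germ cell and testis genes did not follow this order: epididymal library 1 held 145.3 summed CPM of that list, library 8 95.1 CPM, library 5 38.6 CPM and the other 5 libraries 0.4257 to 7.009 CPM, against 13.53 CPM in subcutaneous library 5 and 0.3174 to 0.6601 CPM in the other 7. The lymph node list (B cell and node stroma genes such as Cr2 and Cxcl13) went the other way between depots. It had 80.69 to 151.8 summed CPM in the 8 epididymal libraries, against 926.6 to 1396 CPM in subcutaneous libraries 2 to 8 and 17.3 CPM in subcutaneous library 1. T cell genes followed the same order, with 22.35 to 36.54 CPM in epididymal libraries, 452.7 to 964.7 CPM in subcutaneous libraries 2 to 8 and 13.8 CPM in subcutaneous library 1. Skeletal muscle genes spread over 26.68 to 188 CPM in epididymal and 26.44 to 1014 CPM in subcutaneous libraries. In a bulk tissue sample fewer cells of a type and less RNA per cell cannot be told apart.

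**Figure D1:**
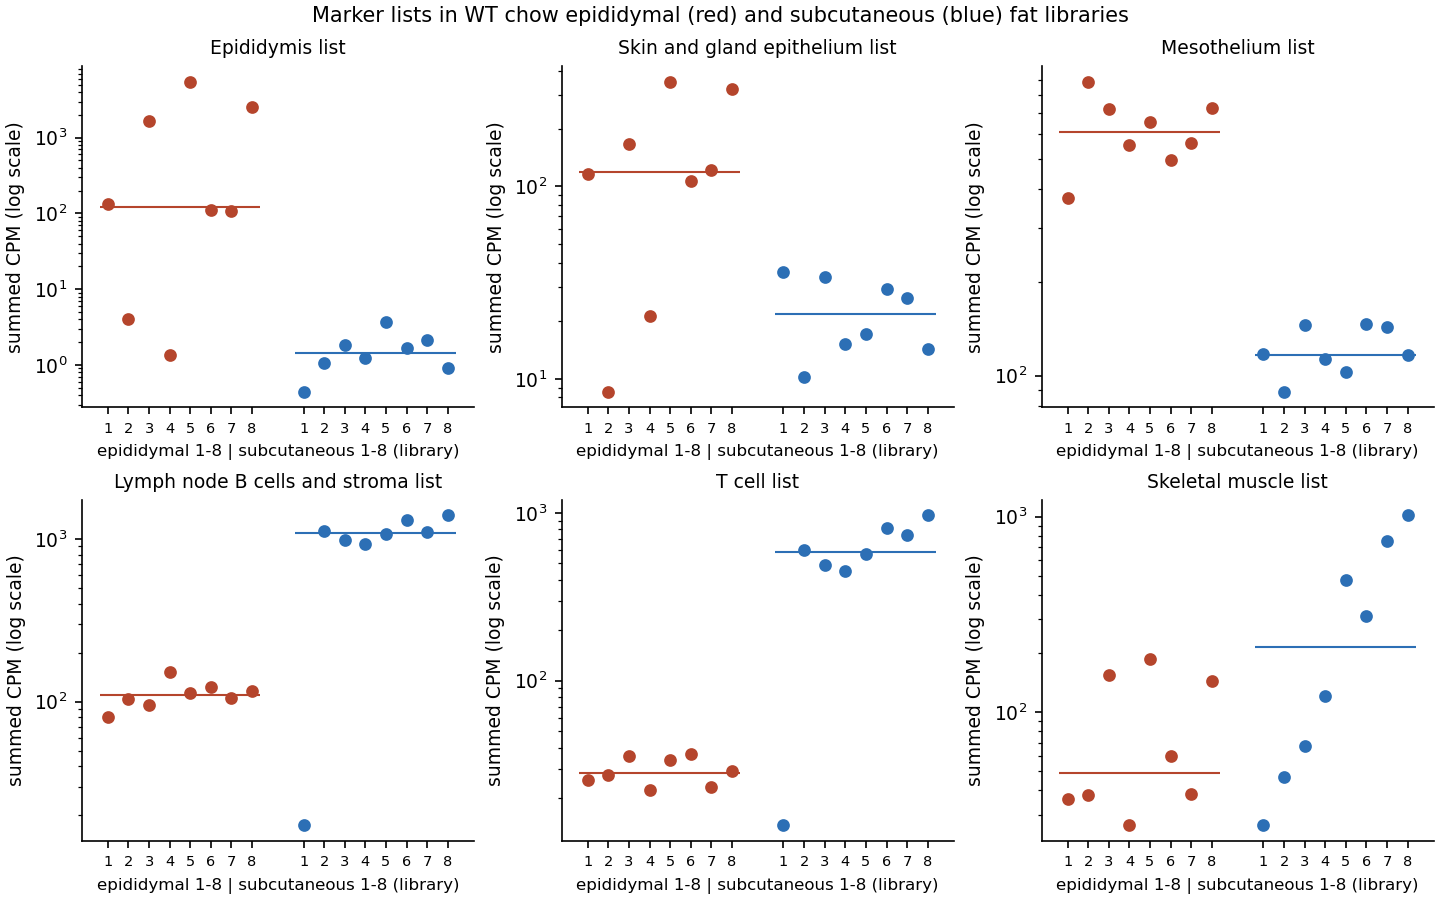
Summed CPM (log scale) of 6 marker lists in each of the 8 WT chow epididymal libraries (red, left) and the 8 subcutaneous libraries (blue, right); points are libraries, lines are group medians. Epididymal libraries 2 and 4 lie lowest for the epididymis list and the skin and gland epithelium list, and subcutaneous library 1 lies lowest for the lymph node and T cell lists, while the mesothelium list separates all 8 epididymal from all 8 subcutaneous libraries.

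Among the epididymal libraries, genes of the carried tract fell into 2 patterns. These were found after the values had been seen, and they are described here with no test. Akr1b7 (Entrez 11997, chromosome 6, 34412362 to 34423137, GRCm38.p6), an aldo-keto reductase gene abundant in the mouse vas deferens, had 26.2, 5.35, 5120, 2.17, 9610, 40.4, 0.93 and 8890 CPM in epididymal libraries 1 to 8 and 0 counts in all 8 subcutaneous libraries. Summed over the groups it was at least 1.12e+05-fold higher in epididymal fat, against a floor of 3 counts over the subcutaneous group. Only libraries 3, 5 and 8 held it in quantity. The prostaglandin synthase gene Ptgs2 followed, with 719, 1300 and 786 CPM in libraries 3, 5 and 8 and 2.36 to 7.6 CPM in the other 5, against 0.636 to 9.97 CPM in subcutaneous libraries. So did the smooth muscle gene Actg2, with 566, 771 and 562 CPM in those 3 libraries and 3.28 to 22.6 CPM in the other 5. The limb and tract patterning gene Hoxd13 had 3.58, 7.87 and 4.31 CPM in libraries 3, 5 and 8 and 0 counts in the other 13 libraries of the comparison.

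A second pattern was present in 6 libraries and absent from epididymal libraries 2 and 4. The calmodulin-like gene Calml3 had 42.3 to 73 CPM in libraries 1, 3, 5, 6, 7 and 8 and 0 counts in libraries 2 and 4, against 0.116 to 0.793 CPM in subcutaneous fat. The epithelial adhesion gene Epcam had 30.6 to 89.6 CPM in those 6 libraries, 0.426 CPM in library 2 and 0.743 CPM in library 4, against 0.952 to 6.75 CPM in subcutaneous fat. Pax8, a transcription factor gene of the urogenital tract, had 10.7 to 63 CPM in the 6 libraries and 0 counts in libraries 2 and 4. Its 2 counts in the whole subcutaneous group gave a ratio of 1.31e+03 (95% counting interval 362 to 1.08e+04). Prom1, a gene of membrane protrusions, had 92.1 to 239 CPM in the 6 libraries and 2.68 and 3.16 CPM in libraries 2 and 4, against 1.46 to 5.9 CPM in subcutaneous fat. Among genes of the whole table, 361 were at least 4 times lower in libraries 2 and 4 than in each other epididymal library and 178 were at least 4 times higher in libraries 3, 5 and 8 than in each of the other 5, after 0.2 CPM was added to each value. In the GFP AAV epididymal libraries, from other mice, library 7 held 0.884 CPM of Crisp1, against 2990 to 7620 CPM in the other 9. It was the lowest of the 10 for 177 of the 178 genes and for 219 of the 361 genes, against 25.7% of the 14413 genes tested there.

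**Figure D2:**
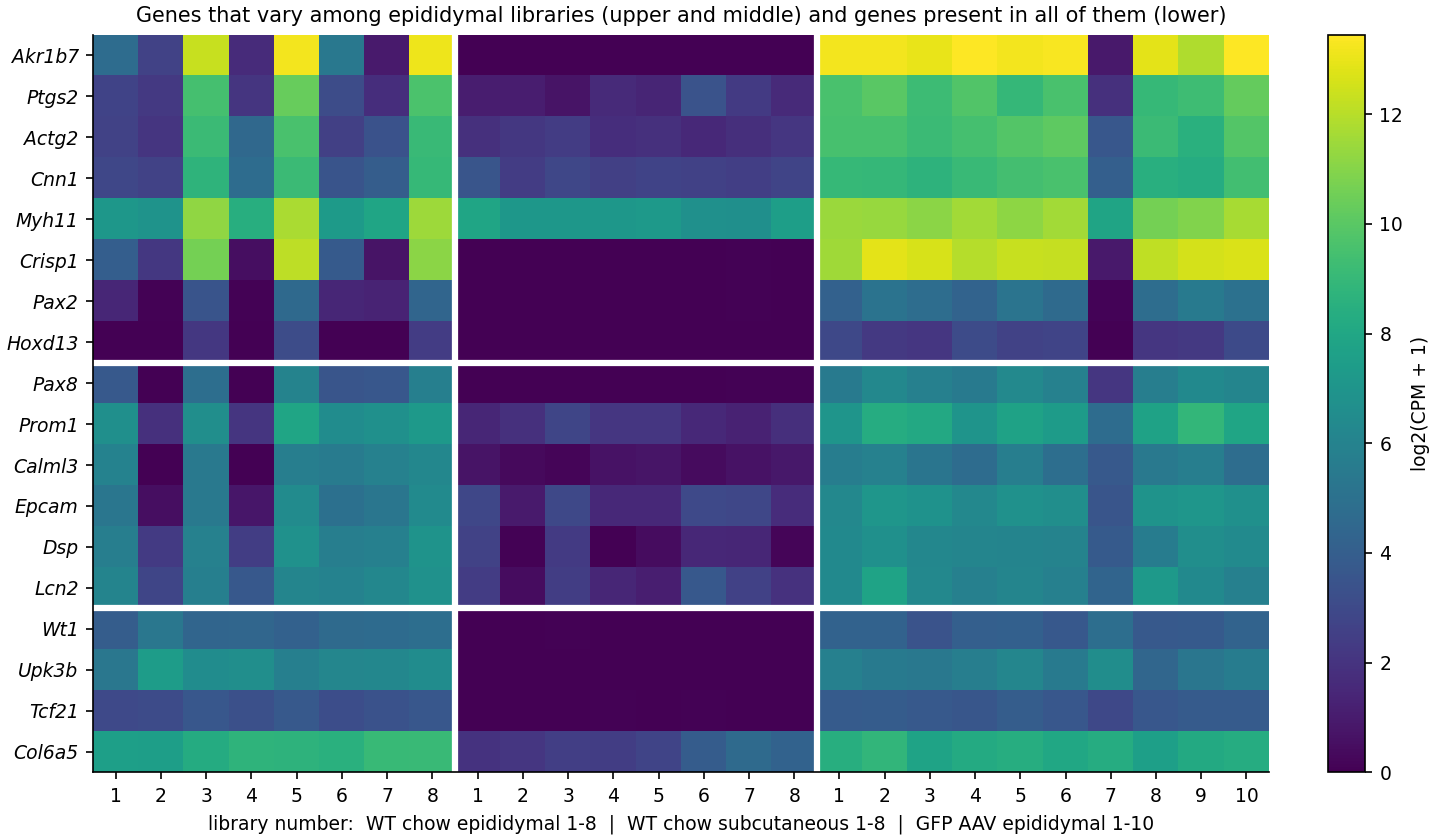
Levels as log2(CPM + 1) of 18 genes in each WT chow epididymal, WT chow subcutaneous and GFP AAV epididymal library. The upper 8 genes are high in WT chow epididymal libraries 3, 5 and 8 and lower in GFP AAV epididymal library 7 than in the other 9, the middle 6 are lowest in epididymal libraries 2 and 4 of the 8 WT chow ones, and the lower 4 (Wt1, Upk3b, Tcf21 and Col6a5) are present in all 18 epididymal libraries and at or near 0 or low in subcutaneous fat.

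Genes with the tract patterns stood among the higher genes, and genes low in subcutaneous library 1 among the lower ones. Of the 944 genes at least 2-fold higher in epididymal fat, 83 were low in libraries 2 and 4 and 43 were high in libraries 3, 5 and 8, together 126. Over all 13979 genes tested, 104 and 79 had these 2 patterns. Of the 1095 genes at least 2-fold lower, 404 were at least 4 times lower in subcutaneous library 1 than in each other subcutaneous library. That pattern was held by 480 of all genes tested. A lymph node class was formed from the lymph node list. It held the list members and genes correlated at 0.8 or more with the list over the 30 subcutaneous libraries of the KO experiment. Of the 1095 genes 510 had the library 1 pattern or were of this class. The correlation was taken within groups so that the depot difference did not enter it, and the class held 664 tested genes. Of these 12 were higher and 580 lower in epididymal fat, with a median log2 fold change of -1.52, and they made up 9.23% of all genes called. The class held 49 of 78 ribosomal protein genes tested. Rpsa, a ribosomal protein gene with many processed copies whose reads can be split, had 466 to 501 CPM in epididymal libraries, against 751 to 1150 CPM in subcutaneous libraries 2 to 8 and 468 CPM in subcutaneous library 1. The same rule with the epididymis list placed 18 tested genes in an epididymis class, 5 higher and 8 lower. Of the 34 list members 1, Ly6g5b, passed the filter on low counts and was not called. With no such filter 33 members were tested, of which 19 were higher and 0 lower, as were 7 and 0 of 12 germ cell genes. Of the 34 epididymis genes 24 had 0 counts in the whole subcutaneous group. Outside both classes 13301 genes were tested, of which 2960 were higher and 2851 lower, 930 and 671 of them at least 2-fold. The 930 still included most of the 126 genes with the tract patterns, since the epididymis class held only 18 tested genes. The 671 still included genes low in subcutaneous library 1. These counts thus still hold genes with these patterns, and the part of carried tissue in them was not tested.

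Other fits left out libraries that stood apart in carried tissue, and the choice of epididymal libraries in them was made after the values had been seen. Without epididymal libraries 3, 5 and 8, 2769 genes were higher and 2816 lower. With epididymal libraries 2 and 4 alone against all 8 subcutaneous libraries, 975 were higher and 795 lower. Of the 944 genes at least 2-fold higher in the full comparison, 779 kept their sign in that small fit and 385 were called, and of the 1095 lower genes all 1095 kept their sign and 351 were called. Without subcutaneous library 1, which was low in lymph node transcript, 3780 genes were higher and 3596 lower. In the GFP AAV mice, which share no library with this comparison, 4721 of 14413 genes were higher in epididymal fat (32.8%) and 4484 lower (31.1%). Called higher in both were 2216 genes, 74.4% of the WT chow list and 46.9% of the GFP AAV list, and called lower in both were 2475 genes, 72.1% and 55.2% of the lists. Another 76 of the higher and 90 of the lower genes were called the opposite way in the GFP AAV mice, whose epididymal libraries held 26.47 to 1.539e+04 summed CPM of the epididymis list.

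**Figure D3:**
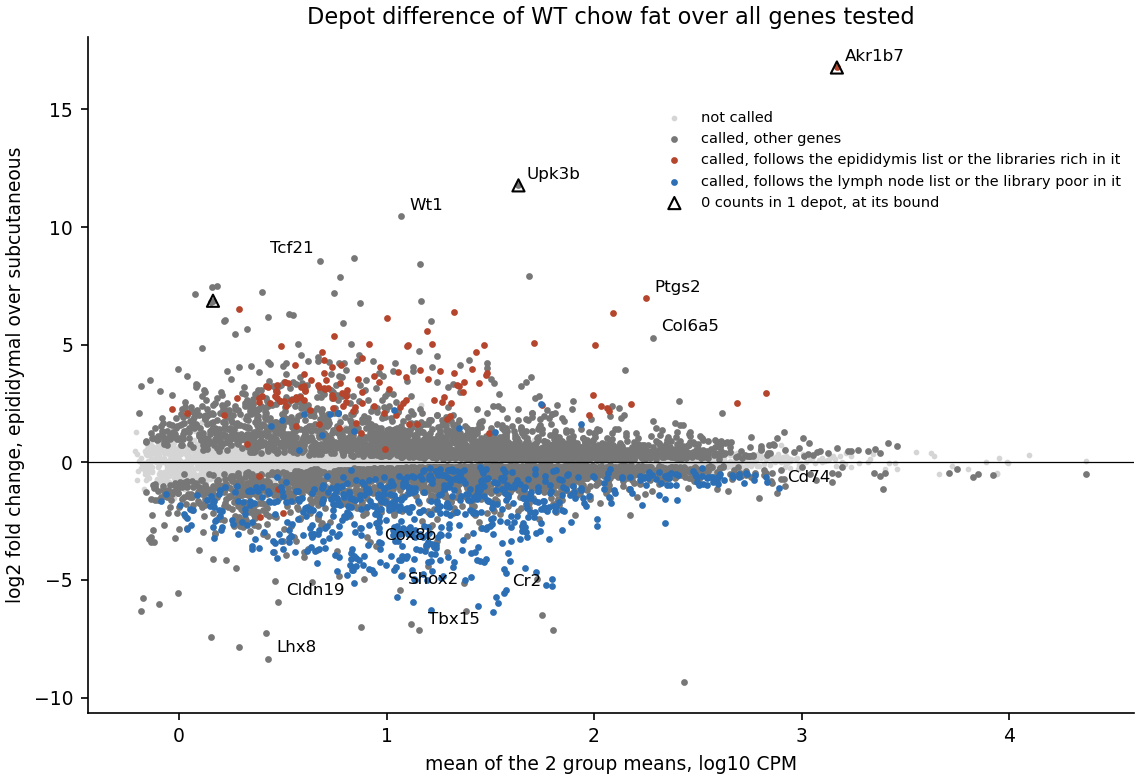
Each point is 1 of the 13979 genes tested, by the mean of its 2 group means (log10 CPM) and its log2 fold change, epididymal over subcutaneous; 3 genes with 0 counts in subcutaneous fat are drawn as triangles at the bound that 3 counts allow. Called genes that follow the epididymis list, or the libraries rich in it, lie mostly above 0 (red), and those that follow the lymph node list, or the library poor in it, lie mostly below 0 (blue); Wt1, Upk3b, Tcf21 and Col6a5 at the upper end and Lhx8, Tbx15, Cldn19 and Shox2 at the lower end are in neither set.

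Several genes of transcription factors that mark body regions differed between the depots, also in the fit on the epididymal libraries nearly free of epididymis transcript. Of 8 tested factors known from visceral fat, 7 were higher in epididymal fat and 0 lower, with a median log2 fold change of 1.21. Wt1 (Entrez 22431, chromosome 2, 105126529 to 105173614), a zinc finger factor of mesothelium and visceral fat progenitors, had 14.9 to 38.6 CPM in the 8 epididymal libraries (median 22.5), against 1 count in 1 of the 8 subcutaneous libraries. The ratio of the group sums was 2.83e+03 (95% counting interval 507 to 1.12e+05; adjusted p = 1e-11), and epididymal libraries 2 and 4 held 38.6 and 21.1 CPM. Tcf21 (Entrez 21412, chromosome 10, 22817263 to 22820143), a helix-loop-helix factor that marks visceral fat progenitors, had 6.88 to 12.3 CPM in epididymal fat (median 9.08), against 2 counts in the subcutaneous group (ratio 564, interval 156 to 4.66e+03). No epididymal library came near a subcutaneous one for either gene. Isl1, a LIM homeobox gene, had 1.21 to 5.53 CPM in epididymal and 0 to 0.146 CPM in subcutaneous libraries. Smaller rises were those of the homeobox gene Emx2 (log2 fold change 1.44), the zinc finger gene Gata6 (0.98, SE 0.15) and the nuclear receptor genes Nr2f1 (0.90, SE 0.15) and Nr2f2 (0.60, SE 0.17). The call of Nr2f2 ended in the fit on epididymal libraries 2 and 4 (0.12, adjusted p = 0.604), as did that of Emx2 (-1.20, adjusted p = 0.101), while Wt1, Tcf21, Isl1, Gata6 and Nr2f1 were called there too. Tbx18 was not called (-0.03).

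Of 10 tested factors known from subcutaneous fat, 0 were higher and 8 lower in epididymal fat, with a median log2 fold change of -2.19. With epididymal libraries 2 and 4 alone 5 were lower (Tbx15, Shox2, En1, Tbx5 and Irx5), and Prrx1, Twist1 and Meox2 were not called. Tbx15 (Entrez 21384, chromosome 3, 99240348 to 99354260), a T-box factor of limb and trunk mesenchyme, had 0.0688 to 0.269 CPM in epididymal libraries, against 22.6 to 34.6 CPM in subcutaneous ones (log2 fold change -7.13, SE 0.167, adjusted p = 2.33e-14). Shox2 (Entrez 20429, chromosome 3, 66971723 to 66981771), a homeobox factor of the limb, had 0.275 to 0.912 CPM in epididymal and 18.9 to 34.6 CPM in subcutaneous fat (-5.44, SE 0.256, adjusted p = 3.8e-10). Every subcutaneous library, library 1 included, lay far above every epididymal one for both genes. Lhx8 (Entrez 16875, chromosome 3, 154306288 to 154330560), a LIM homeobox gene outside the list, had 1 count in the whole epididymal group, against 3.26 to 9.58 CPM in subcutaneous libraries (ratio 652 higher in subcutaneous fat, 95% counting interval 117 to 2.58e+04). The limb factor gene Tbx5 (-4.49), the engrailed gene En1 (-4.17) and the Iroquois gene Irx5 (-3.17) were also lower, and Irx3 (-0.07) and Prrx2 (0.93) were not called.

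The promoters of 4 of these depot-restricted genes are shown because their genes were at or near 0 counts, or below 1 CPM, throughout 1 depot and present in every library of the other. Each run covers 250 bases before to 50 after the annotated start (RefSeq, GRCm38.p6), 5′ to 3′ on the strand of the gene, with CG dinucleotides, the main sites of DNA methylation in mammals, in capitals. Upk3b, described next, is included as a gene with 0 counts in subcutaneous fat.
Tcf21 (chr10:22820094-22820393, minus strand, higher in epididymal fat): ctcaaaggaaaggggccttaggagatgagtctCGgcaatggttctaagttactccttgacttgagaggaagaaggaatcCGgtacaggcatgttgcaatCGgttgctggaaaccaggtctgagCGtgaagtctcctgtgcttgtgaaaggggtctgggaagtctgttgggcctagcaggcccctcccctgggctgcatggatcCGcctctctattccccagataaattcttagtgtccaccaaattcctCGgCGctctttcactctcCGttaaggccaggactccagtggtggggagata
Upk3b (chr5:136038246-136038545, plus strand, higher in epididymal fat): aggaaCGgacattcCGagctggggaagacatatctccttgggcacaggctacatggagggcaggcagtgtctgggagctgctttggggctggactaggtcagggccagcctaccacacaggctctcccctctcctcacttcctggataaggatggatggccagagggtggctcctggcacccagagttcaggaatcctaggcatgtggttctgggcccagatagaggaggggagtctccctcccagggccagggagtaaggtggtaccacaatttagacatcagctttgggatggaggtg
Shox2 (chr3:66981722-66982021, minus strand, lower in epididymal fat): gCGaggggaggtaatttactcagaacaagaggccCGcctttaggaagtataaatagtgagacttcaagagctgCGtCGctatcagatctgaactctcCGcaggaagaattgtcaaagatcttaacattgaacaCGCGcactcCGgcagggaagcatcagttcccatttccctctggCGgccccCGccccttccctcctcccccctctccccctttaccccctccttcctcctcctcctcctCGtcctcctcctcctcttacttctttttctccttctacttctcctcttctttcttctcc
Lhx8 (chr3:154330511-154330810, minus strand, lower in epididymal fat): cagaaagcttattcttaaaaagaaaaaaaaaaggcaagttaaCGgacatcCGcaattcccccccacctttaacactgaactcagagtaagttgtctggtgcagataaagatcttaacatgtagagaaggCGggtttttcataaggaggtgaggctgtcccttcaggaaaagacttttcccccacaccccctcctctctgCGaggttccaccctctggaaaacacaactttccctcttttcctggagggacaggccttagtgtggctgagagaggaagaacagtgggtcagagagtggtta
The windows held 8 CG dinucleotides for Tcf21, 2 for Upk3b, 11 for Shox2 and 4 for Lhx8, against a median of 7 over 32851 promoters of the same length. As many CGs or more were held by 48.6% of promoters for Tcf21, 85.9% for Upk3b, 41.4% for Shox2 and 68.6% for Lhx8, so the depot-restricted genes lay on both sides of the median. Methylation was not measured.

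Mesothelial genes were higher in epididymal fat nearly throughout. Of 15 tested members of the list, 13 were higher and 0 lower, with a median log2 fold change of 4.23, also with Upk3b at its bound, and 0 of the 13 followed the tract patterns above. Their summed level was 374.1 to 885.6 CPM in epididymal and 88.82 to 146.5 CPM in subcutaneous libraries. Upk3b (Entrez 100647, chromosome 5, 136038496 to 136044993), a uroplakin gene of mesothelium and bladder, had 39.8 to 171 CPM in the 8 epididymal libraries (median 82.1) and 0 counts in all subcutaneous ones, which made it at least 3.49e+03-fold higher. Msln, the gene of the surface protein mesothelin, had 14.7 to 61.1 CPM in epididymal and 0 to 0.44 CPM in subcutaneous fat (log2 fold change 6.85, SE 0.393, adjusted p = 3.98e-09). The related uroplakin gene Upk1b (8.44, SE 0.53), the zinc finger gene Bnc1 (7.89, SE 0.60) and the Wnt amplifier gene Rspo1 (4.03, SE 0.20) were higher with no overlap of the groups. Library 2, which held nearly no epididymis transcript, was the highest of the 8 for Wt1, Upk3b, Upk1b, Bnc1 and Msln. Keratin genes, which duct epithelium also expresses, split: Krt8 (4.23, SE 0.80) had 13.6 and 10.2 CPM in epididymal libraries 2 and 4 and 42.6 to 113 CPM in the other 6, while Krt7 (3.04, SE 0.58) had its highest levels, 14 and 14.5 CPM, in libraries 2 and 4. The calls of Krt8 and Krt18 ended in the fit on these libraries (adjusted p = 0.303 and adjusted p = 0.473), and that of Krt7 did not (adjusted p = 0.0159). Cldn15 (0.27) and Sulf1 (0.33) were not called. Outside the list, the endocytic receptor gene Lrp2 (7.90, SE 0.56) had 26.8 and 14.1 CPM in epididymal libraries 2 and 4 and 94.4 to 163 CPM in the other 6. The chloride channel gene Cftr (7.20, SE 0.66) had 2.8 and 1.55 CPM in libraries 2 and 4 and 8.88 to 17.1 CPM in the other 6. Subcutaneous libraries held 0.127 to 0.81 CPM of Lrp2 and 0 to 0.198 CPM of Cftr.

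**Figure D4:**
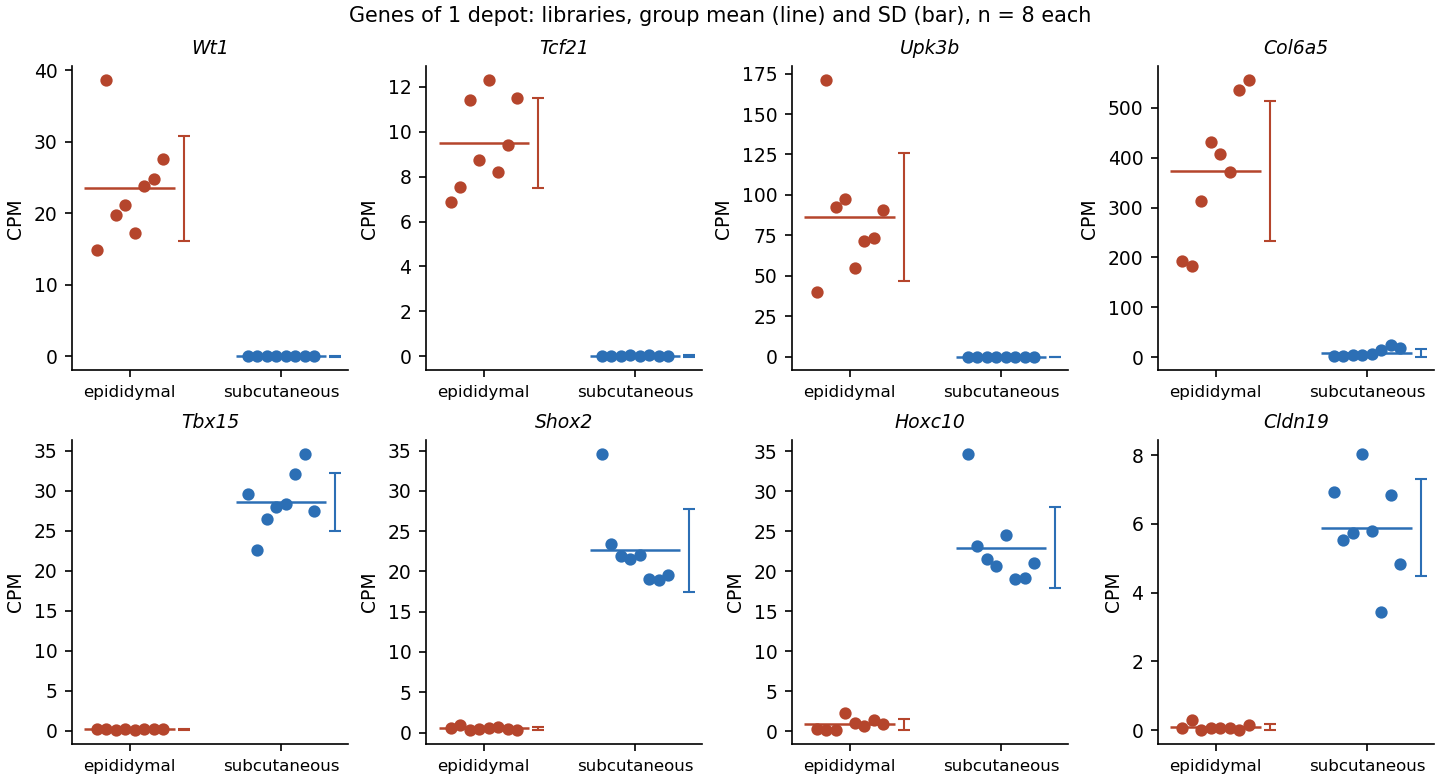
Levels (CPM) of 4 genes higher in epididymal fat (upper row) and 4 genes lower in epididymal fat (lower row); points are the 8 libraries of each depot, lines are means and bars are SD. For each of the 8 genes every library of one depot lies above every library of the other.

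Hox genes, which record head-to-tail position, went both ways. Of 27 tested members 14 were higher and 3 lower in epididymal fat, with a median of 0.88, beside 21.3% and 24.6% of all genes. The 3 lower ones were Hoxc10 (-4.78, SE 0.43), Hoxa9 (-2.23, SE 0.32) and Hoxc9 (-1.31, SE 0.23). Hoxc10 (chromosome 15, 102966796 to 102971898) had 0.122 to 2.29 CPM in epididymal libraries, against 19 to 34.7 CPM in subcutaneous ones, with no overlap. Among the higher ones Hoxa5 had 10 to 18.7 CPM in epididymal and 4.47 to 6.28 CPM in subcutaneous fat (1.35, SE 0.14, adjusted p = 1.99e-06), and Hoxc4 13.4 to 24.8 against 4.63 to 10.6 CPM (1.37, SE 0.19). The groups did not overlap for either gene, and both calls held with epididymal libraries 2 and 4 alone. Hoxb9 (2.29, SE 0.39) and Hoxb8 (1.76, SE 0.46) did not do so: their values in that fit were 0.01 (adjusted p = 0.979) and -0.42 (adjusted p = 0.492). In that fit 4 Hox genes were higher and 4 lower. Hoxd11 and Hoxd13 had 0 counts in the subcutaneous group and were too sparse to test.

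Few genes of fat-cell identity were called in the WT chow comparison. Of 18 tested adipocyte genes 3 were higher and 1 lower, with a median of 0.06. The fatty acid synthesis list had 1 of 18 higher (the pentose phosphate enzyme gene G6pdx, 0.52, SE 0.14) and 0 lower, with a median of -0.05. The respiratory chain list had 0 of 24 higher and 1 lower (Cox5a, -0.22), with a median of -0.05, and the call of Cox5a ended without any of 13 of the 16 libraries in turn. These shares lay below the 21.3% and 24.6% of all genes. Cav1, the gene of the membrane-invagination protein caveolin 1, had 2580 to 3840 CPM in epididymal and 1280 to 2430 CPM in subcutaneous fat (0.81, SE 0.17). The lipid droplet gene Cidec (0.55, SE 0.15) and the triglyceride synthesis gene Dgat2 (0.61, SE 0.20) were higher, and the adipogenic factor gene Cebpb was lower (-0.71, SE 0.15), though not called with epididymal libraries 2 and 4 alone (-0.28, adjusted p = 0.311). The groups overlapped for Cidec, Dgat2 and Cebpb. Adipoq (0.36, adjusted p = 0.0603) and the leptin gene Lep (0.75, adjusted p = 0.0729) were not called. Among adipokines 3 of 11 were higher and 0 lower (median 0.36), the higher ones at about the share of all genes (21.3%). Rbp4, the retinol carrier gene, had 164 to 307 CPM in epididymal and 109 to 205 CPM in subcutaneous fat (0.82, SE 0.17). Retn, the resistin gene, was at 0.41 (SE 0.14), and Lcn2 (3.81, SE 0.61) was low in libraries 2 and 4 (6.08 and 11.9 CPM, against 55.5 to 109 CPM in the other 6). In the GFP AAV mice 3 of the 18 adipocyte genes were higher and 13 lower in epididymal fat, as were 1 and 12 of the 18 fatty acid synthesis genes and 1 and 12 of the 24 respiratory chain genes. The difference between the experiments was not tested, and the epididymis list stood at a median of 122.5 CPM in WT chow and of 7520 CPM in GFP AAV epididymal libraries.

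Of 18 tested lipolysis genes 1 was higher and 3 lower, with a median of -0.16. Both shares lay below the 21.3% and 24.6% of all genes. Genes of receptors that start or stop lipolysis were among those called. With epididymal libraries 2 and 4 alone 0 of the 18 were called in either direction, and in the GFP AAV mice 0 were higher and 13 lower. The beta-3 adrenergic receptor gene Adrb3 had 352 to 652 CPM in epididymal fat (median 545), against 122 to 421 CPM in subcutaneous fat (median 267; 0.95, SE 0.28, adjusted p = 0.0112). The anti-lipolytic receptor genes Adra2a (-1.19, SE 0.23) and Hcar2 (-1.12, SE 0.29) were lower. For Hcar2 the levels were 11.8 to 37.3 CPM in epididymal and 33.6 to 94 CPM in subcutaneous libraries. In the GFP AAV mice Hcar2 (-1.80) and Adra2a (-0.76) were lower as well, while Adrb3 was not called (0.05, adjusted p = 0.764). The lipase genes Pnpla2 (-0.19) and Lipe (0.10) and the perilipin gene Plin1 (0.13) were not called.

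Thermogenic genes were lower in epididymal fat in 9 of 14 cases and higher in 1, with a median of -1.57. Cox8b, a cytochrome oxidase subunit gene of brown and beige fat, had 0.673 to 2.23 CPM in epididymal and 6.63 to 33.9 CPM in subcutaneous fat (-3.56, SE 0.329, adjusted p = 6.81e-07). Cidea, which controls lipid droplet size in brown fat, had 1.28 to 3.59 against 6.33 to 58.4 CPM (-3.58, SE 0.45), and the proton channel gene Otop1 0.269 to 0.99 against 4.15 to 35.2 CPM (-4.95, SE 0.50). The groups did not overlap for these 3 genes. The beige regulator gene Prdm16 was at -1.43 (SE 0.18). Tnfrsf9 (-3.70), a beige marker that activated T cells also express, followed the lymph node pattern. The single rise, Slc27a2 (3.48), followed the tract pattern, with 0 counts in epididymal libraries 2 and 4. The uncoupling protein gene Ucp1 was too sparse to test: it had 0 to 0.283 CPM in epididymal libraries, against 83.4 CPM in subcutaneous library 2 and 0 to 2.55 CPM in the other 7. In the GFP AAV mice Cox8b was lower (-2.02) and Cidea was not called (-1.45, adjusted p = 0.183). There 2 of 16 tested thermogenic genes were higher and 6 lower. Their summed level spread over 97.69 to 1845 CPM in GFP AAV epididymal libraries, with a median of 118.4 CPM.

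**Figure D5:**
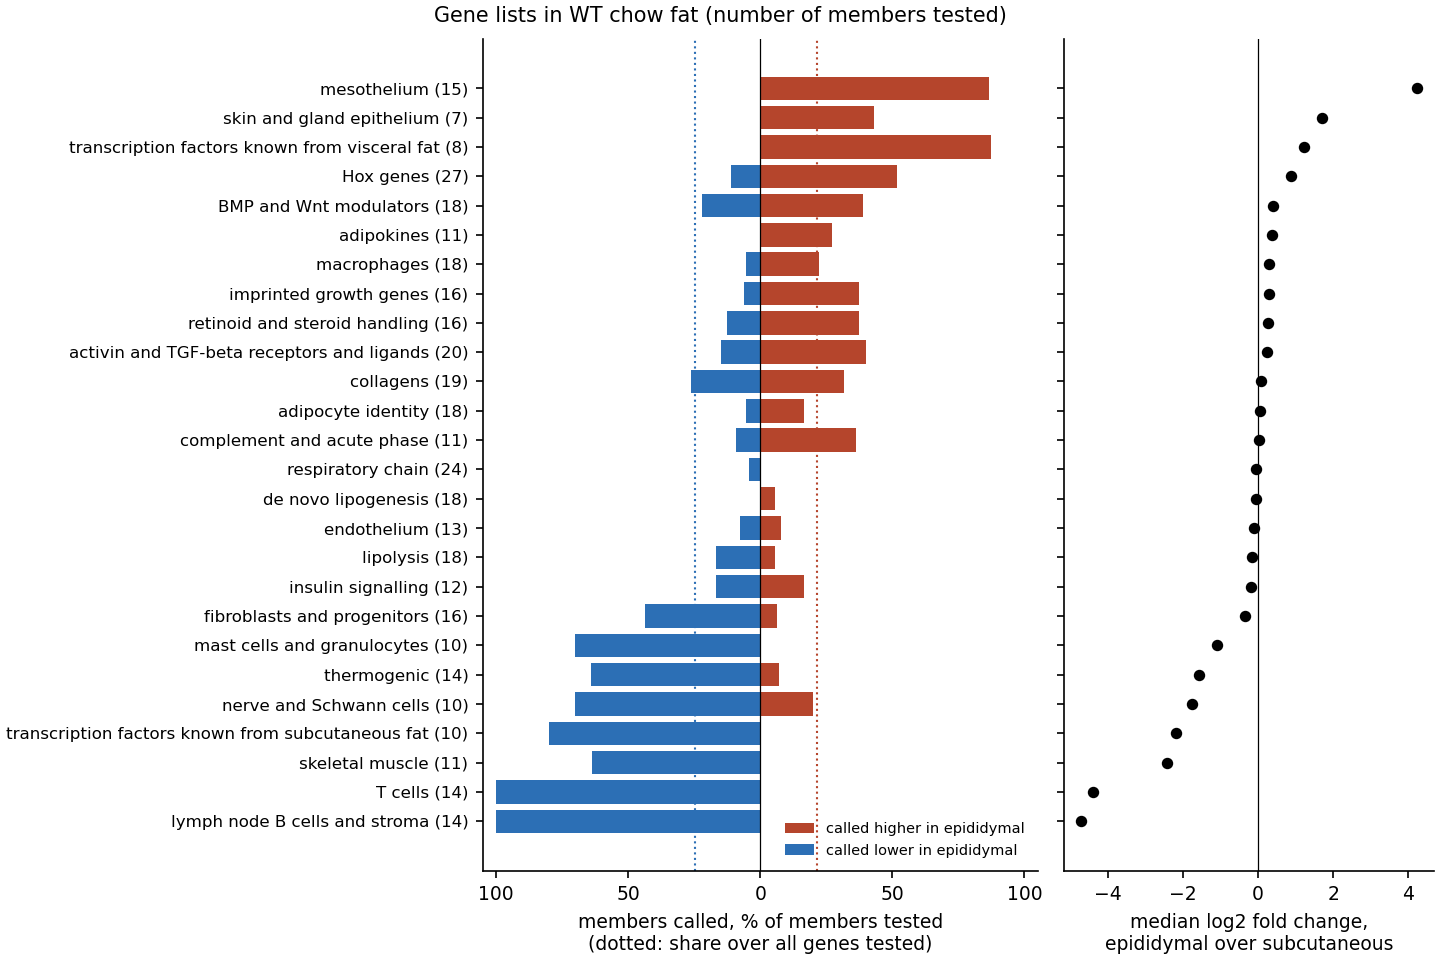
Left, members called higher (red) or lower (blue) in epididymal fat as a percentage of members tested, for 26 gene lists with at least 5 members tested (numbers in parentheses); dotted lines are the shares over all genes tested, 21.3% and 24.6%. Right, the median log2 fold change of each list: the mesothelium list stands highest at 4.23 and the lymph node and T cell lists lowest at -4.72 and -4.39, with the adipocyte, respiratory chain and fatty acid synthesis lists near 0.

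Of 20 tested genes of the activin and TGF-beta pathway, the subject of the series, 8 were higher and 3 lower in epididymal fat, with a median of 0.25. Over all genes 21.3% were higher and 24.6% lower. Activins are dimers of inhibin beta subunits that signal through type I and type II receptor kinases, and activin E is reported to act through the type I receptor ALK7, the product of Acvr1c. Inhbe itself (chromosome 10, 127349402 to 127351848) had 0 counts in all 16 libraries. Acvr1c (chromosome 2, 58267453 to 58357896) had 255 to 552 CPM in epididymal fat (median 365), against 166 to 439 CPM in subcutaneous fat (median 252). It was not called (0.55, SE 0.231, adjusted p = 0.0609), and the groups overlapped, with subcutaneous library 1 far above the other 7. Its call depended on the fit. Without that library the adjusted p was 0.00189 and the log2 fold change 0.79, without epididymal libraries 3, 5 and 8 it was 0.83 (adjusted p = 0.0133), and it was called with DESeq2 (0.57, adjusted p = 0.0291), limma-voom (0.69, adjusted p = 0.00299), library totals as the scaling (0.59, adjusted p = 0.0214) and all 61 libraries (0.59, adjusted p = 0.0338). With epididymal libraries 2 and 4 alone Acvr1c was not called (0.68, adjusted p = 0.196). Nor was it with RLE or upper-quartile scaling, or with no low-count filter. With 1 library left out at a time it was called only without subcutaneous library 1 or epididymal library 3 or 5. In the GFP AAV mice it was called (0.73, adjusted p = 0.00375). The activin antagonist gene Fstl3 had 9.08 to 17.6 CPM in epididymal and 2.25 to 5.29 CPM in subcutaneous fat (1.61, SE 0.202, adjusted p = 1.29e-05). The ligand gene Tgfb3 had 46.3 to 75.5 against 23.2 to 33.3 CPM (1.02, SE 0.13). Neither gene's groups overlapped, and both calls held with epididymal libraries 2 and 4 alone. The activin A subunit gene Inhba (1.38, SE 0.31) was called in the full comparison and not in that fit (0.38, adjusted p = 0.602), and Bmpr1b (4.58, SE 0.54) had 1.7 and 3.47 CPM in libraries 2 and 4 and 10.9 to 32.3 CPM in the other 6. Gdf11 (-1.90), Tgfb1 (-0.73) and Tgfbr2 (-0.39) were lower, while Inhbb (0.08), Acvr2a (-0.18), Acvr2b (-0.02) and Acvr1b (0.12) were not called.

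Among modulators of BMP and Wnt signalling, which steer progenitors toward or away from the fat-cell fate, 7 of 18 were higher and 4 lower, with a median of 0.41. The lower ones were at about the share of all genes (24.6%). The secreted Wnt inhibitor gene Sfrp1 had 57.1 to 123 CPM in epididymal and 9.25 to 17.8 CPM in subcutaneous fat (2.73, SE 0.18, adjusted p = 1.64e-08). The BMP antagonist gene Nog had 2.26 to 4.72 against 0.0661 to 0.382 CPM (3.86, SE 0.29), and the ligand gene Bmp4, whose product noggin binds, 11.8 to 17.8 against 4.59 to 8.04 CPM (1.18, SE 0.14). All 3 genes separated the groups without overlap. Wnt10b (-0.79) and Sfrp4 (-1.32) were lower with overlapping groups. Rspo3 (2.28) was called in the full comparison and not with epididymal libraries 2 and 4 alone (0.41, adjusted p = 0.671).

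Fibroblast and progenitor genes were lower in 7 of 16 cases and higher in 1, with a median of -0.35, beside 24.6% and 21.3% of all genes. Wnt2 had 0.404 to 0.944 CPM in epididymal and 2.95 to 16.5 CPM in subcutaneous fat (-3.35, SE 0.32), and Pi16, a marker of early progenitors, was at -1.30 (SE 0.24). Thy1 (-1.96, SE 0.19), which T cells also carry, had 27.5 CPM in subcutaneous library 1 and 61.8 to 106 CPM in the other 7, against 15.1 to 24.8 CPM in epididymal fat. The general markers Pdgfra (0.01), Pdgfrb (-0.01) and Cd34 (-0.05) were not called. Of 19 collagen genes 6 were higher and 5 lower, with a median of 0.09, the lower ones at about the share of all genes (24.6%). With epididymal libraries 2 and 4 alone 5 were higher and 0 lower. Col6a5 (Entrez 665033, chromosome 9, 105856070 to 105962463), a chain of microfibrillar collagen VI, had 182 to 555 CPM in epididymal fat (median 390), against 2.93 to 24.2 CPM in subcutaneous fat (median 5.3; 5.30, SE 0.465, adjusted p = 4.11e-07). Libraries 2 and 4 held 182 and 432 CPM, and the call held in the fit on these libraries (5.09, adjusted p = 0.000803). Its neighbour in the family, Col6a6, was also higher (45.3 to 67.2 against 6.63 to 21.1 CPM; 2.39, SE 0.20), while Col6a3 was lower (-1.21, SE 0.20) and Col6a1 (0.09) and Col6a2 (-0.04) were not called. The fibrillar genes Col1a1 (-1.30, SE 0.31) and Col3a1 (-1.14, SE 0.25) were lower, and were not called with epididymal libraries 2 and 4 alone (adjusted p = 0.235 and adjusted p = 0.261).

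Schwann cell genes were lower in epididymal fat. Of 10 tested nerve and Schwann cell members 7 were lower and 2 higher, with a median of -1.76. The myelin gene Mbp had 40.6 to 56.6 CPM in epididymal and 134 to 197 CPM in subcutaneous fat (-1.75, SE 0.102, adjusted p = 3.98e-09). Sox10, a transcription factor gene of Schwann cells, had 0.122 to 1.75 CPM in epididymal and 3.24 to 7.52 CPM in subcutaneous fat (-2.64, SE 0.37). The myelin junction gene Cldn19, which is outside the list, had 0 to 0.304 CPM in epididymal and 3.45 to 8.04 CPM in subcutaneous fat (-5.93, SE 0.409, adjusted p = 2.46e-08). None of these 3 genes had overlapping groups, subcutaneous library 1 held 172 CPM of Mbp, and 0 of the 7 lower members followed the lymph node pattern. Of the 2 rises, Ncam1 (1.65) was high in epididymal libraries 3, 5 and 8 and not called with libraries 2 and 4 alone (-0.67, adjusted p = 0.108), and Erbb3 (1.39) was lower in that fit (-0.86, adjusted p = 0.029).

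Lymphocyte genes were lower in epididymal fat. All 14 tested members of the lymph node list and all 14 of the T cell list were lower in epididymal fat, with medians of -4.72 and -4.39. Cr2, a complement receptor gene of B cells, had 0 to 3.77 CPM in epididymal fat, against 70.7 to 93.2 CPM in subcutaneous libraries 2 to 8 and 0.0637 CPM in subcutaneous library 1. Subcutaneous library 1 lay within the epididymal range for Cr2 and for the T cell receptor gene Cd3e (1.85 CPM, against 1.06 to 2.36 CPM in epididymal fat). Macrophage genes were higher in 4 of 18 cases and lower in 1 (median 0.29), shares near or below those of all genes. Vsig4 (1.50, SE 0.34) and Retnla (1.09, SE 0.25), genes of tissue-resident macrophages, were higher. Timd4 (-2.68, SE 0.41), a receptor gene of resident and lymph node macrophages, was lower and followed the lymph node pattern, with 4.46 CPM in subcutaneous library 1 and 21.7 to 77.1 CPM in the other 7. Mast cell and granulocyte genes were lower in 7 of 10 cases (median -1.09), in 1 of 12 with epididymal libraries 2 and 4 alone, in 5 of 12 without epididymal libraries 3, 5 and 8, and in 3 of 8 in the GFP AAV mice. The neutrophil receptor gene Cxcr2 had 0 to 0.558 CPM in epididymal fat, against 12.2 to 24.9 CPM in subcutaneous libraries 6, 7 and 8 and 0.892 to 6 CPM in the other 5 (-5.07, SE 0.65). The decoy receptor gene Il1r2 had 0.0619 to 0.482 CPM in epididymal and 10.2 to 68.4 CPM in subcutaneous fat (-6.86, SE 0.51), again highest in subcutaneous libraries 6 and 7. Slfn4 (-5.13) rested on these libraries, with 202 and 144 CPM in subcutaneous libraries 6 and 7 and 1.08 to 13.3 CPM in the other 6. It was not called with limma-voom (-1.44, adjusted p = 0.234) or with epididymal libraries 2 and 4 alone (-4.84, adjusted p = 0.254).

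Other large falls sat beside carried tissue or uncertain counting. The sarcomere gene Ttn (-6.28, SE 0.85) and the fast myosin gene Myh4 (-7.11, SE 1.04) were lower in epididymal fat with 7 of 11 tested muscle genes (24.6% of all genes were lower), and Myh4 had 5.48 to 363 CPM in subcutaneous fat. Both were uncalled in the GFP AAV mice (-0.45, adjusted p = 0.779 and -0.95, adjusted p = 0.622), whose muscle list spread over 28.73 to 4438 CPM in epididymal and 13.03 to 3456 CPM in subcutaneous libraries. The major urinary protein genes Mup2 (-6.99) and Mup11 (3 counts in epididymal fat, ratio 205 higher in subcutaneous fat, interval 69.7 to 996) are paralogs with nearly the same sequence, so how reads were divided among them is uncertain. The liver gene Alb had 4.78 to 8.91 CPM in epididymal and 16.7 to 36.7 CPM in subcutaneous fat (-1.99, SE 0.20). Of 7 liver list members 2, Alb and Serpina1a, passed the low-count filter, and both were lower. With no filter 2 of the 7 were higher and 2 lower. An Entrez ID with no symbol in the annotation table, ID100048885, had a mean of 0.79 CPM in epididymal and 539.8 CPM (SD 540.6) in subcutaneous fat. The part of carried tissue in the muscle, Mup and Alb values was not tested.

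Genes of retinoid and steroid handling were higher in 6 of 16 cases and lower in 2 (median 0.27), beside 21.3% and 24.6% of all genes. The retinoic acid synthesis gene Aldh1a2, a mesothelial gene as well, had 17.7 to 31.6 CPM in epididymal and 2.02 to 5.1 CPM in subcutaneous fat (2.80, SE 0.18), and Aldh1a1 had 328 to 469 against 62.8 to 220 CPM (1.69, SE 0.21). Akr1c18, a progesterone-inactivating reductase gene, was lower (-3.80, SE 0.30). Among imprinted growth genes 6 of 16 were higher and 1 lower (median 0.28), beside the same 21.3% and 24.6% of all genes. Mest (Entrez 17294, chromosome 6, 30733506 to 30748466), a hydrolase-like gene that tracks fat-mass expansion, had 138 to 268 CPM in epididymal and 15.7 to 56 CPM in subcutaneous fat (2.37, SE 0.268, adjusted p = 5.28e-06), with no overlap. Klf14 (1.74, SE 0.25) and Peg10 (1.40, SE 0.26) were higher and H19 lower (-1.78, SE 0.44). In the complement and acute phase list 4 of 11 were higher and 1 lower (median 0.02), again beside 21.3% and 24.6% of all genes. Endothelial genes had 1 of 13 higher and 1 lower (median -0.12), and insulin signalling 2 of 12 each way (median -0.20). The shares of both lists lay below those of all genes.

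The depot difference of lean WT fat was then tested against the depot difference in 2 other settings, both of which share the 16 chow libraries. Against Inhbe KO mice on chow the interaction was called for 0 of 15064 genes (0.0%) by edgeR's quasi-likelihood test, with 475 genes at an unadjusted p under 0.05, a smallest adjusted p of 0.265 and 7 calls by DESeq2. In data simulated for these groups 81.8% of 4-fold and 44.8% of 2-fold interactions were recovered. Only 200 genes were changed there and the rest had no difference between depots, unlike the data. Against WT mice on HFD the interaction was called for 4172 of 14943 genes (27.9%), more positive on HFD in 2143 and more negative in 2029. Mest had an interaction of -3.21 (SE 0.33, adjusted p = 4.79e-08): on HFD it had 521 to 1070 CPM in epididymal and 905 to 1830 CPM in subcutaneous fat, the opposite order to chow. Retn (-2.44, SE 0.25) had 82 to 184 CPM in epididymal and 387 to 974 CPM in subcutaneous fat on HFD, and Retnla (-3.30, SE 0.45) 31.9 to 99.6 and 131 to 818 CPM. Fstl3 (-2.30, SE 0.28) and Acvr1c (-1.49, SE 0.38) also had negative interactions, with Acvr1c at 36.5 to 136 CPM in epididymal and 42.3 to 215 CPM in subcutaneous fat on HFD. Wt1 (-3.04) and Lhx8 (3.05) had called interactions as well and kept their depot on HFD. Both values rest on few counts in the depot that nearly lacks the gene. Wt1 had 1 subcutaneous count on chow and 5 on HFD, and Lhx8 1 epididymal count on chow and 31 on HFD. Wt1 had 7.06 to 15.3 CPM in epididymal and 0 to 0.186 CPM in subcutaneous libraries, and Lhx8 0 to 0.453 and 5.29 to 13.2 CPM. On HFD the macrophage list stood at 2945 to 4350 summed CPM in epididymal and 1030 to 1852 CPM in subcutaneous fat, against 1219 to 2279 and 713.2 to 2226 CPM on chow, and the part of the changed cell mix in these interactions was not tested.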

How the data were processed

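Poly(A) RNA libraries were sequenced from mouse fat. Per the labels' protocols, 500 ng RNA, a KAPA mRNA HyperPrep kit, adapters with unique molecular identifiers (UMIs), 14 PCR cycles and 76-cycle paired ends were used. The authors deposited estimated counts per Entrez gene, 1 table per experiment, not scaled for depth, with 2.93% of the cells not whole within a tolerance of 1e-06. The build named in the submitters' processing notes is mm10. Which aligner and counter were run, and whether strand and UMIs were used, is not given in those sources. Overlapping, antisense and paralogous genes may therefore share reads.

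Estimated counts were rounded, since the design had assumed raw counts. Genes kept by filterByExpr (minimum count 10, minimum total 15) were scaled by TMM and tested with edgeR 4.0.16 (quasi-likelihood, robust; R 4.3.3, limma 3.58.1), fitting the 16 libraries alone; SE is the absolute log2 fold change over the square root of F. Interactions used the 4 groups involved. P-values measure the spread between libraries that the labels call biological replicates. The common biological coefficient of variation was 0.265. Alternatives were other scalings, no filter, DESeq2 1.42.0, limma-voom, a replicate block, all 61 libraries of the KO experiment, and leaving out each library. Counts simulated from each gene's mean over all groups and its fitted spread were used to test the scripts. Only 200 genes were changed and the rest had no difference between groups, unlike the data. Of the changed genes in the depot comparison 98.5% of 4-fold, 79.1% of 2-fold and 49.3% of 1.5-fold changes were recovered, with 10 false calls. No 2 libraries of a group were copies (index of spread at least 13.8 in epididymal and 6.19 in subcutaneous fat, where counting noise gives 1).

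Class correlations used log2(CPM + 1) centred on group means, over 31 epididymal and 30 subcutaneous libraries. Symbols, places and promoters were joined by Entrez ID from RefSeq tables of GRCm38.p6, the assembly mm10 names; 100 IDs had no symbol. Named genes were Inhbe, Acvr1c, the 10 largest rises and falls with at least 5 CPM outside carried-tissue classes and lists, the 5 most abundant called genes of each class, up to 3 called genes of each list by p, and the 5 smallest adjusted p of each sign per interaction. Other genes were added after their values were seen. The comparison, the 29 lists and the named-gene rule were chosen with earlier results of these data known. Figures used Python 3.11.15 and matplotlib 3.10.9. Some named genes are not reported here.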

Additional observations from a re-analysis of the deposited data

Results flagged for a closer look

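Among the named genes 28 values stood apart from the other 7 of their group by Dixon's test at the 95% level, which flags about 1 group in 20 by chance. Subcutaneous library 1 supplied 11 of these. It was the lowest of its group for Pax5 (0.127 CPM), Fcer2a (0.382 CPM), Cd3e (1.85 CPM), Cd3g (1.21 CPM), Cd74 (212 CPM), Rps3a1 (418 CPM) and L1cam (13 CPM). It was the highest for Acvr1c (439 CPM), Shox2 (34.6 CPM), Hoxc10 (34.7 CPM) and Hcar2 (94 CPM). The same library held 17.3 summed CPM of the lymph node list, against 926.6 to 1396 CPM in the other 7, and the part of this in the values was not tested.

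Epididymal library 2 was the highest of its group for Upk3b (171 CPM), Msln (61.1 CPM), Bnc1 (24.2 CPM), Aldh1a2 (31.6 CPM), Timd4 (12.2 CPM), Fcer2a (3.53 CPM) and Atp2a1 (1.7 CPM), and the lowest for Cox5a (42.4 CPM). The other epididymal values were those of Slc1a1 in library 5 (22.1 CPM), Armcx6 in library 8 (4.88 CPM), Ly6g5b in library 8 (4.52 CPM) and S100a9 in library 6 (2.22 CPM). The other subcutaneous values were those of Ptgs2 (9.97 CPM), Lcn2 (12.2 CPM) and S100a9 (46.1 CPM) in library 6, Wnt2 in library 7 (16.5 CPM) and Peg10 in library 3 (10.2 CPM).

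For 48 of the 110 named genes the depot difference on HFD differed from that on chow in edgeR's quasi-likelihood test of the interaction. Of all 14943 genes tested 27.9% were called. Some named genes were chosen by their small adjusted p in this same interaction, so the count is no result about the named genes. The chow side of the interaction is the 16 libraries described above. More negative on HFD were Retnla (-3.30), Mest (-3.21), Nog (-3.09), Wt1 (-3.04), Sox7 (-2.69), Retn (-2.44), Klf14 (-2.43), Ccdc9b (-2.32), Fstl3 (-2.30) and Eepd1 (-2.17). The rest of this direction were Acvr1c (-1.49), Aldh1a1 (-1.48), Cav1 (-1.41), Peg10 (-1.39), Bmp4 (-1.25), Cidec (-1.17), Shox2 (-1.14), Adrb3 (-1.13), Hoxa5 (-1.06), Flt4 (-0.96), Rbp4 (-0.79) and Hoxc4 (-0.74). More positive on HFD were Arhgap25 (4.07), Otop1 (3.83), Arhgap19 (3.07), Lhx8 (3.05), Myo1e (2.93), Pacc1 (2.60), Mcpt4 (2.56), Cox8b (2.21), Wnt2 (1.98) and Nfya (1.53). Smaller values of this direction were those of Cd74 (1.29), Mbp (1.07), Thy1 (0.89), L1cam (0.79), Rps6 (0.72) and Slc2a1 (0.68), beside Slfn4 (5.37) and Il1r2 (4.46). The values of Wt1 and Lhx8 rest on few counts in 1 depot, as given above. Cd74 and Rps6 belong to the lymph node class. The lymph node list had a median of 523.5 summed CPM in subcutaneous libraries on HFD and 1092 CPM on chow, and the T cell list 320.3 CPM on HFD and 586.4 CPM on chow; the part of this in the interactions was not tested.

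The remaining 8 are genes of liver and skeletal muscle or, for Mup11 and Mup2, genes that the liver expresses. Mup11 (11.37), Mup2 (9.45), Alb (5.82) and Serpina1a (4.26) were more positive on HFD, where the liver list reached 4513 summed CPM in 1 epididymal library, against at most 11.89 CPM in epididymal libraries on chow. Myh4 (6.41), Ttn (5.90), Atp2a1 (5.68) and Mylpf (4.13) were more positive too, with the skeletal muscle list at up to 775.3 CPM in epididymal libraries on HFD and 188 CPM on chow. The part of these organs in the interactions was not tested.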

How the results depend on the processing

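Calls of the depot comparison changed most in the fit on epididymal libraries 2 and 4 alone. There 975 genes were higher and 795 lower, against 2977 and 3435, and 48 and 48 list members, against 93 and 103. That fit had fewer samples as well as less epididymis transcript, and their parts in the change were not tested. Among the genes named by the rule it turned Sytl4 (-0.0393), Epcam (-2.7623), Cdh1 (-1.4766) and Ly6g5b (-0.9553) to lower, none of them called there. Another 38 lost their call. Among genes added later the rises of Emx2, Hoxb8, Ncam1 and Erbb3 also turned to lower, with Erbb3 called. Ly6g5b, not called, was also lower with DESeq2 (-0.9557), limma-voom (-1.3907), the replicate block (-0.5326), and without epididymal libraries 3, 5 and 8 (-1.3619) or 8 alone (-1.0265), and ranged from that to 0.4815 with 1 library left out; the cause was not tested. Leaving out 1 library at a time gave 2727 to 3780 higher and 3058 to 3596 lower genes, the first maximum without subcutaneous library 1, when 111 list members were higher and 103 lower. DESeq2 (3387 and 3418), limma-voom (3532 and 3739), no low-count filter (4464 and 3603), all 61 libraries (3791 and 2888) and 4 other scalings stayed within 1.5 times, and no scaling moved the median of all genes by 0.1. The epididymis class held 52 genes at a correlation of 0.7, 3 at 0.9 and 1544 over the 8 WT chow epididymal libraries alone, against 18. The lymph node class held 1224, 267 and 3151 genes, against 664. For the genotype interaction DESeq2 called 4 genes more positive and 3 more negative, and the replicate block 1 and 1.

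The labels do not pair libraries of the same number. Their deviations from the group means correlated at -0.0461 to 0.2, with 3 of 8 pairs above 0.1, and 5 of 8 correlated best with their own number. With the replicate block 2886 genes were higher and 3195 lower, Acvr1c was called (0.58, adjusted p = 0.0248) and Slfn4 was not (-2.69, adjusted p = 0.0737). With the low-count filter 1 of 34 epididymis genes and 0 of 12 germ cell genes were tested; with none, 19 of 33 and 7 of 12 were higher.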
